A study of Mus musculus with 9 samples.

Results

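CTCF occupancy after 72 h of culture in IL-7 and IL-15 was compared between CD8+ T cells lacking Tcf1 and Lef1 (DKO) and wild-type (WT) CD8+ T cells. The comparison rested on 4 of the 9 libraries of the study, 2 DKO and 2 WT, chosen by the genotype and time in their titles, and on peaks of chromosomes 1 to 19. The DKO cells came from mice with both genes floxed (genotype Tcf1-/-Lef1-/-) and the WT cells from mice with both genes intact, and both carried the hCD2-Cre transgene and the Cre-dependent Rosa26-lsl-GFP reporter. Splenocytes were sorted for GFP+ TCRbeta+ CD62Lhi CD44lo-med CD8+ cells, which were cultured with the cytokines, and the live cells were profiled by CUT&RUN with a CTCF antibody. In this assay an antibody-tethered nuclease cuts and releases the DNA around the bound protein. Deletion is limited to cells in which Cre driven by human CD2 sequences was active, and the GFP sort selects these. DKO and WT cells at 0 h, 2 libraries each, served as libraries that had no part in choosing the 72 h regions. The labels state neither the age nor the number of animals, and do not call the replicates separate animals. P-values therefore measure only how far these libraries spread, which may be technical. Peak lists hold no transcript levels, so neither the cell type label nor the loss of Tcf1 and Lef1 was checked against expressed genes.

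CTCF is a zinc-finger protein that binds a long DNA motif, marks insulators and loop anchors in chromatin, and there halts the loop-extruding cohesin ring. Tcf1 and Lef1, the products of Tcf7 and Lef1, are related HMG-box factors that bend DNA on binding and maintain the identity and quiescence of naive and memory T cells. IL-7 and IL-15 signal through receptors that share the common gamma chain and sustain the survival and slow division of CD8+ T cells without antigen.

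The DKO libraries had fewer and narrower CTCF peaks after 72 h. DKO replicates 1 and 2 held 10078 and 15829 autosomal peaks, against 16909 and 25940 in WT replicates 1 and 2. The mean was 12953.5 ± 4067 peaks in DKO and 21424.5 ± 6386 in WT (SD, n = 2 each), and the groups did not overlap (exact two-sided permutation test, p = 0.333, the smallest that 2 libraries against 2 allow). The peaks of the DKO lists covered 4813 and 8419 kb, against 9203 and 16389 kb in WT, with median widths of 447 and 499 bp in DKO and 511 and 601 bp in WT. The authors' median fold enrichment over local background was 7.03 and 8.05 in DKO and 7.89 and 9.06 in WT, which overlapped (exact permutation test, p = 0.667). The deposited lists give no read totals, so the part of depth in list length was not tested, and an absent peak shows only that none was called. All peaks of these lists had a fold of at least 4, and none overlapped any of the 5 peaks of the IgG control. That control came from WT naive cells, so no IgG library of DKO cells or of 72 h was at hand.

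With the lists as deposited, the sites of DKO cells were almost entirely contained in those of WT cells. Overlapping peaks of the 4 lists were merged into 26315 regions (median width 607 bp), of which 9537 (36.2%) held a peak in every list. A peak in both DKO lists and neither WT list (DKO-only) was found at 12 regions, 0.0456% of all. The reverse (WT-only) held at 2516 regions, 9.56% of all. WT replicate 2 alone held 7722 regions, and 4354 regions were in every list but DKO replicate 1. The DKO lists are also the 2 shortest, so genotype and list length cannot be told apart in these counts.

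**Figure D1:**
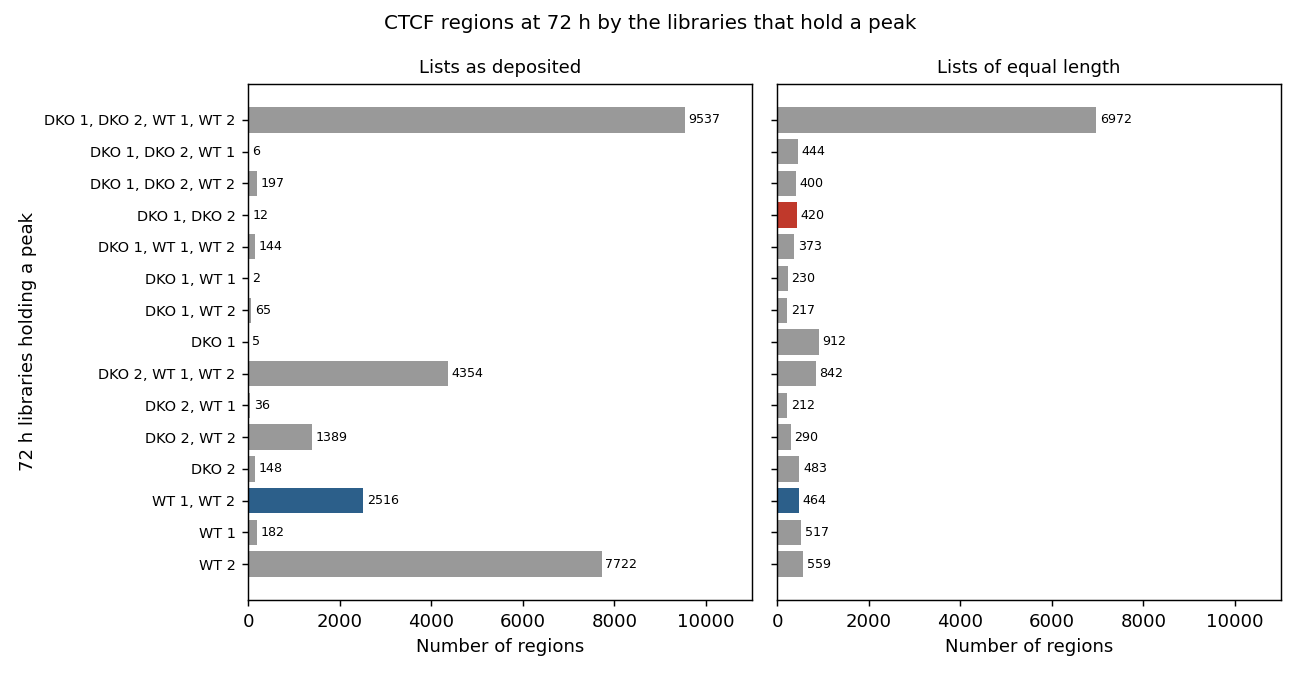
Number of regions (horizontal axis) for each combination of 72 h libraries that hold a peak (vertical axis), with the lists as deposited on the left and cut to equal length on the right. DKO-only regions are red and WT-only regions blue: 12 and 2516 as deposited, 420 and 464 at equal length.

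The sites missing from the other genotype were mostly the weak ones. Regions found in both libraries of a genotype were divided into 10 classes of strength, or deciles, by the mean within-list rank of the authors' −log10 p. For the 9752 regions found in both DKO lists, the weakest decile had a peak at 89.7% in WT replicate 1 and 99.2% in WT replicate 2, and the strongest decile at 99.9% in each. For the 16551 regions found in both WT lists, the weakest decile had a peak at 7.98% in DKO replicate 1 and 36.6% in DKO replicate 2. These shares were 58.5% and 90.8% in the fifth decile and 98.6% and 99.8% in the strongest. In the strongest decile of WT regions, 23 of 1656 lacked a peak in DKO replicate 1, 3 lacked one in DKO replicate 2 and 1 lacked both.

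**Figure D2:**
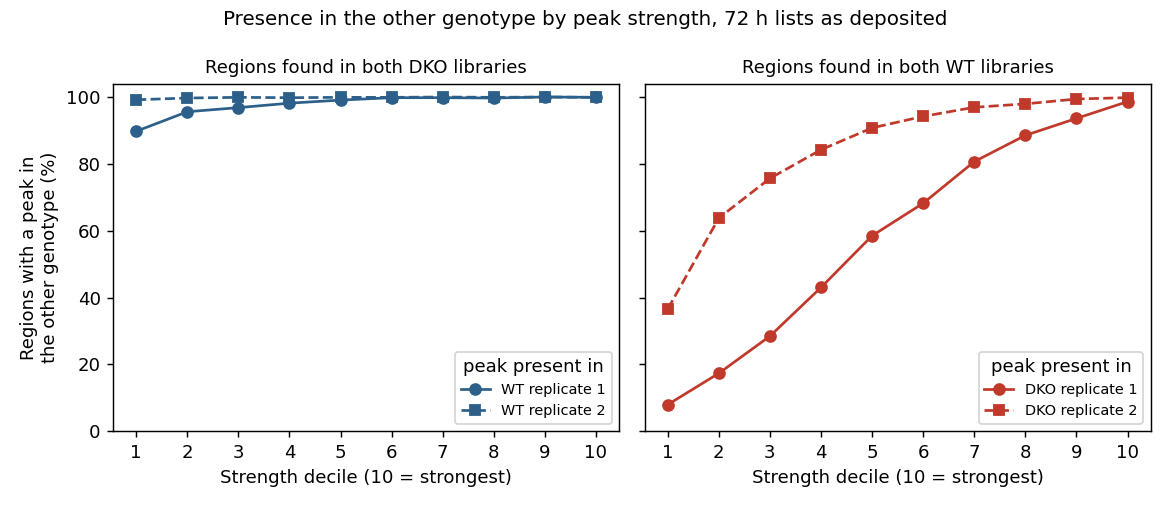
Percentage of regions with a peak in each library of the other genotype (vertical axis) by strength decile of the region, weakest at 1 and strongest at 10 (horizontal axis), for regions found in both DKO libraries (left) and in both WT libraries (right). WT libraries hold 89.7% or more of the DKO regions at every strength, whereas DKO replicates 1 and 2 hold 7.98% and 36.6% of the weakest WT regions and 98.6% and 99.8% of the strongest.

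To compare lists of the same length, each was cut to its 10339 peaks of highest −log10 p, the length of the deposited list of DKO replicate 1. This left 10078 and 10121 autosomal peaks in DKO and 10114 and 10118 in WT. The last peak kept had a −log10 p of 4.24 and 11 in DKO and of 11.6 and 22.1 in WT. The first peak left out had the same value in the 3 lists that were cut. The whole list of DKO replicate 1 was kept, so it alone contributed its weakest peaks. It also stood apart in holding 912 regions that no other cut list held, against 483 in DKO replicate 2 and 517 and 559 in WT.

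At equal length each genotype had regions with a peak above the cut in both of its lists and in neither list of the other. They are called specific in this sense only, as a peak of the other genotype may lie below the cut. Of 13335 regions in at least 1 cut list, 420 were DKO-only (3.15%) and 464 were WT-only (3.48%). The DKO-only regions were 5.10% of those in both DKO lists and the WT-only regions 5.36% of those in both WT lists. Cutting all lists to one length fixes the number of peaks per list and tends to bring these 2 counts together. Their balance is therefore not read as a result. A region in 2 libraries against 2 cannot reach an exact p below 0.333, so none carries a p. When 1 library stood for its genotype, the DKO-only count was 903 and 1332 without DKO replicates 1 and 2 and 864 and 820 without WT replicates 1 and 2, and the WT-only count was 837, 1306, 1023 and 981 in the same order. With the top 5000 peaks of each list, where every list was cut well above its end, 239 regions were DKO-only (3.44% of 6950) and 294 were WT-only (4.23%).

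Most of these sites had a peak below the cut in at least 1 deposited list of the other genotype. Of the 420 DKO-only regions, 363 had a peak further down both WT lists, 49 in 1 WT list and 8 in neither. Their median place was 8092.5 and 8517.5 from the top of the DKO lists, against 12504 and 12710.5 in the WT lists that held them, which are longer. The median fold of the DKO-only regions was 5.53 and 8.20 in DKO, against 6.39 and 9.60 in the WT lists that held them. Of the 464 WT-only regions, 0 had a peak in DKO replicate 1, whose list had no further peaks, 265 had one in DKO replicate 2 and 199 had none in either. Their median place was 11954 in DKO replicate 2, against 7704 and 7734.5 in the WT lists, and their median fold was 5.86 in DKO replicate 2, against 8.27 and 12.8 in WT. For both kinds of region the lower place in the other genotype follows from how they were chosen, and fold sizes are not comparable between lists. With the top 5000 peaks, the specific regions without any peak in the other genotype were 2 of 239 DKO-only and 25 of 294 WT-only regions. The deposited DKO lists searched here were the shorter ones.

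The DKO-only regions at equal length were led by chr1:167788604-167792249 (mm9), a broad region of 3646 bp. It held the strongest peak of both DKO lists, with a fold of 39.3 and 59.5, and no peak in either WT list. Its folds at 0 h were 68.8 and 50.4 in DKO, again with no WT peak. This region therefore stood apart by genotype in all 8 libraries. The second, chr4:119593588-119594131, had a fold of 10.6 and 10.7 in DKO and no WT peak, and at 0 h 20.2 and 20.4 in DKO and none in WT. Its place in the DKO lists was 1946 and 4355.

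The other 6 leading DKO-only regions had a peak in at least 1 WT list and in all 4 libraries at 0 h. At chr7:26539941-26541614 the fold was 6.58 and 10.9 in DKO, against no peak and 4.50 in WT. At chr7:106110976-106111627 it was 8.12 and 12.0 in DKO, against 7.29 and 8.75 in WT. The corresponding values at chr10:41700301-41701077 were 10.6 and 9.80 in DKO, against 6.91 and 11.3 in WT, which overlap. Fold sizes are not comparable between lists, and the regions were chosen by place: 1887 and 5653 in the DKO lists at this region, against 11830 and 10517 in the WT lists. The remaining leaders were chr12:16516118-16516802 (9.10 and 11.2 in DKO, 5.25 and 8.29 in WT), chr16:96451861-96452737 (7.47 and 11.9 in DKO, 5.2 and 5.37 in WT) and chr4:117965294-117966151 (7.03 and 11.2 in DKO, 5.01 and 7.93 in WT).

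Of the 8 leading WT-only regions, 5 had no DKO peak at 72 h in either library. The first, chr5:148134670-148135473, had no peak in DKO and a fold of 10.1 and 24.0 in WT, at places 1135 and 543. At 0 h it had a peak in every library, with 18.3 and 16.1 in DKO and 56.5 and 36.2 in WT. At chr17:26709019-26709781 DKO replicate 1 had no peak and DKO replicate 2 had 5.95, against 11.5 and 26.9 in WT. Here the listed folds at 0 h were 11 and 9.67 in DKO and 12.4 and 11.7 in WT.

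Among these 8, 3 regions had a WT peak and no DKO peak at 0 h as well. They were chr1:138497024-138497699 (no DKO peak at 72 h, 14.3 and 22.7 in WT), chr2:127753263-127753926 (no DKO peak at 72 h, 9.18 and 18.2 in WT) and chr13:46017859-46018319. The WT folds at 0 h were 19.9 and 19.6, 15.9 and 9.07, and 21.5 and 18.1 in that order. The last of these had a weak peak of 4.90 in DKO replicate 2 at 72 h, against 12.1 and 23.5 in WT. The other 3 regions had peaks in both genotypes at 0 h. Of these, chr13:95745903-95746899 and chr13:113214201-113215563 had none in DKO at 72 h, against 6.69 and 8.0 at the first and 7.13 and 12.2 at the second in WT. At chr6:145135752-145136331 no peak and 5.03 stood in DKO at 72 h, against 15.8 and 21.6 in WT. The same region had 29.9 and 18.6 in DKO and 31.3 and 27.9 in WT at 0 h.

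**Figure D3:**
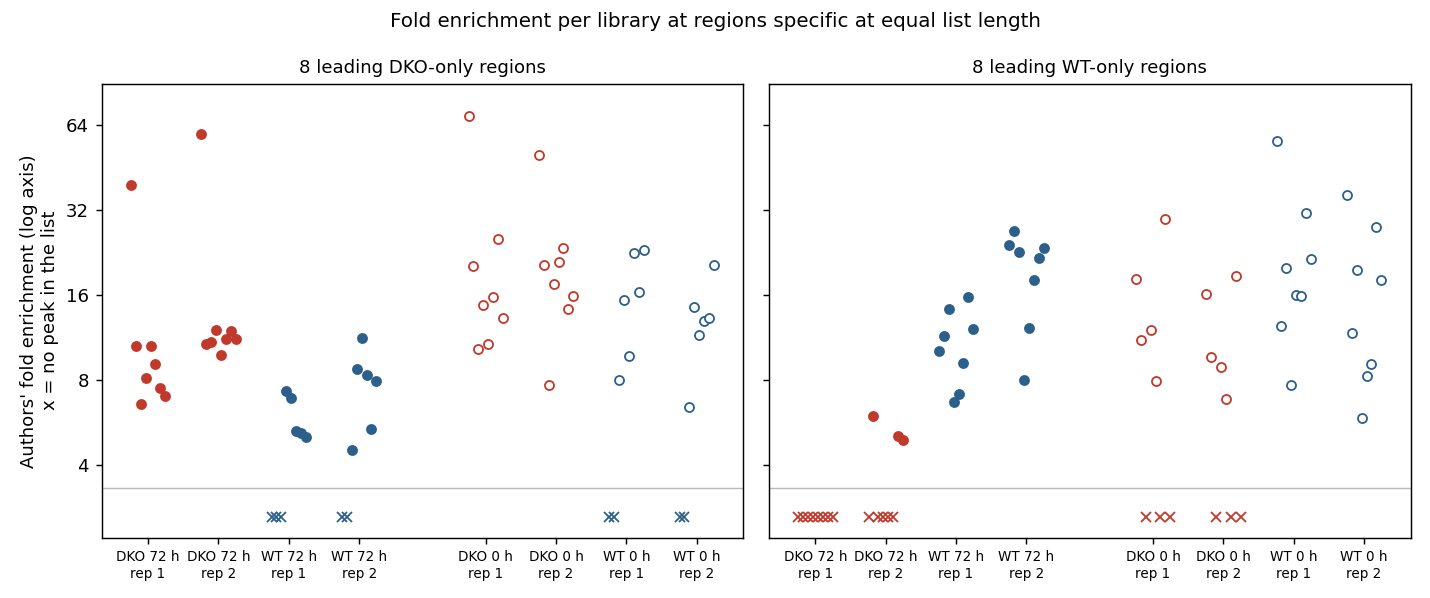
Authors' fold enrichment (vertical axis, log scale) in each library (horizontal axis, 72 h filled and 0 h open, DKO red and WT blue) at the 8 leading DKO-only regions (left) and the 8 leading WT-only regions (right) at equal list length; each point is 1 region and a cross marks a list without a peak. The WT-only regions have no peak in DKO replicate 1 and at most 5.95 in DKO replicate 2 at 72 h, and the highest point of each DKO library on the left is the broad region on chromosome 1, which no WT library holds.

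All 12 regions that were DKO-only in the deposited lists were examined at 0 h. After the first 2 their folds in DKO ran from 4.08 to 9.83. At 0 h, 5 of the 12 had a peak in both DKO and neither WT library, 4 in all libraries, 1 in both WT and neither DKO library, 1 in DKO replicate 2 alone and 1 in none. The 5 were the 2 regions above, chr10:128100717-128101089 (6.26 and 9.83 in DKO at 72 h, 9.58 and 10.2 at 0 h), chr6:108580916-108581260 (5.18 and 7.39, then 10.1 and 8.70) and chr16:24165887-24166442 (4.90 and 5.41, then 4.58 and 4.74). Of all 26315 regions, 81.2% had a peak in all 4 lists of 0 h. The share with a peak in both libraries of one genotype alone at 0 h was not computed, so the 5 are given as description only. Of the 12 leading WT-only regions in the deposited lists, all 12 were also listed in each WT library of 0 h, and 8 of them in each DKO library. At chr12:88151430-88152215 there was no DKO peak at 72 h, against 17.9 and 19.8 in WT, and at 0 h the DKO folds were 4.24 and 7.63, against 38.5 and 31.3 in WT. At chr11:87886833-87887510 the WT folds were 13.4 and 20.3 at 72 h and 40.2 and 35.9 at 0 h, and the only DKO peak was one of 5.25 in replicate 1 at 0 h.

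Some specific sites had another of their kind nearby. Another region of the same kind lay within 50 kb of 23 of the 420 DKO-only regions (5.48%) and 31 of the 464 WT-only regions (6.68%). No like share was computed for other regions, so these shares are not read as clustering. The densest DKO-only window of up to 500 kb was chr4:119593588-120054150, where 5 of the 6 regions in both cut DKO lists were DKO-only and the sixth was in all 4. Its second region, chr4:119595752-119596383, had a fold of 5.74 and 10.9 in DKO, against no peak and 6.19 in WT. Also inside it, chr4:119777355-119777703 and chr4:119789104-119789572 had a peak in DKO replicate 2 (6.03 and 9.02) but not in DKO replicate 1 at 72 h, and in no WT library at either time. Both had a peak in each DKO library at 0 h, of 7.42 and 7.38 at the first and 9.66 and 11.9 at the second. Next came chr8:122887355-123345694, with 3 DKO-only among 10 regions, and chr10:43953094-43977043, a stretch of 23.95 kb where all 3 regions were DKO-only. All 6 DKO-only regions of these 2 windows had a WT peak lower in a deposited list and a peak in every library at 0 h.

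The densest WT-only windows held 3 such regions each, in chr1:173573649-173719160 (3 of 4 regions in both cut WT lists), chr2:117075015-117267170 (3 of 6) and chr2:127658172-127753926 (3 of 4). In the first, chr1:173712616-173713323 had no DKO peak at either time, against WT folds of 8.14 and 15.4 at 72 h and of 7.40 and 9.46 at 0 h. In the second, chr2:117225200-117225561 likewise had none in DKO, against WT folds of 9.26 and 14.7 at 72 h and of 9.19 and 13.9 at 0 h. None of the 6 windows held specific regions of both kinds, but each was chosen for its number of one kind. Each held at most 10 regions in both cut lists of that genotype, so this is not read as a separation of the kinds. Across chromosomes, DKO-only regions made up from 3.29% (chromosome 16) to 6.65% (chromosome 17) of the regions in both cut DKO lists. WT-only regions made up from 3.71% (chromosome 3) to 7.27% (chromosome 19) of those in both cut WT lists.

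The 0 h libraries, which had not been used to choose these regions, held peaks at most of them in both genotypes before culture, as at most of all regions. All 4 lists of 0 h held a peak at 96.2% of DKO-only and 82.8% of WT-only regions. The same was found at 81.2% of all 26315 regions and at 99.2% of the 9537 in every 72 h list. Of the 420 DKO-only regions, a peak stood in both DKO lists of 0 h at 98.1% and in both WT lists at 96.2%. Of the 464 WT-only regions, both DKO lists of 0 h held 83.2% (exact Clopper-Pearson 95% interval 79.5 to 86.5, counting error only) and both WT lists 96.1% (93.9 to 97.7). The gap lay mostly in the 199 WT-only regions with no DKO peak at 72 h. Of these, 66.8% and 68.8% had a peak in the DKO libraries at 0 h and 93.5% and 93.0% in the WT libraries, whereas the other 265 had one in 97.7% in each DKO and 99.2% in each WT library. The 0 h lists repeated the 72 h pattern, with both libraries of one genotype and neither of the other, at 6 of the 420 DKO-only and 46 of the 464 WT-only regions. The share of all regions with such a pattern at 0 h was not computed, so these counts are given as description only.

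Fold ranks at 0 h leaned the same way as presence at 72 h. Over the 21372 regions found in all 4 libraries at 0 h, both DKO ranks lay above both WT ranks at 21.7% and the reverse held at 20.8%. Among the 404 DKO-only regions ranked at 0 h these shares were 30.4% and 14.9%. Among the 384 ranked WT-only regions they were 14.6% and 39.8%, and among the 128 of them with no DKO peak at 72 h 13.3% and 47.7%. The median rank difference at 0 h, DKO minus WT, was 2.84 percentile points for DKO-only regions and -6.70 for WT-only regions, against 0.16 over all 21372. These shares describe regions within the same libraries and carry no test.

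**Figure D4:**
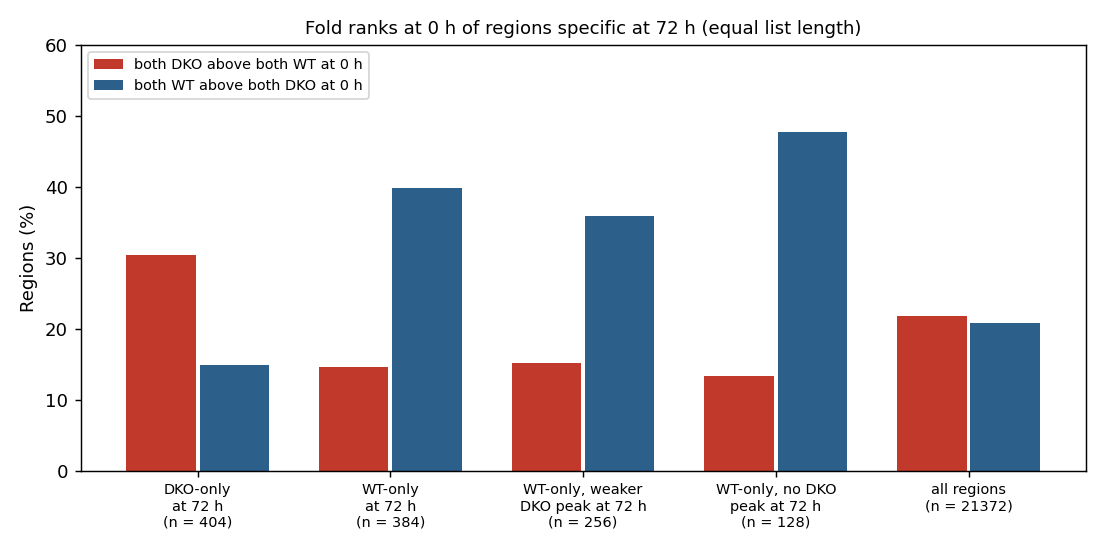
Percentage of regions (vertical axis) whose 2 DKO fold ranks at 0 h lay above both WT ranks (red) or below both (blue), for the classes of 72 h regions on the horizontal axis, with n regions ranked. WT-only regions show 14.6% and 39.8% and DKO-only regions 30.4% and 14.9%, against 21.7% and 20.8% of all regions.

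At the 9537 regions found in all 4 lists, the order of CTCF sites by strength was compared as the within-list rank of the authors' fold, from 0 (weakest) to 100 (strongest). Both DKO ranks lay above both WT ranks at 1796 regions (18.8%), and both WT ranks above both DKO ranks at 1802 (18.9%). The median size of the difference was 8.21 percentile points, against 10.9 between the DKO replicates and 9.49 between the WT replicates. In limma on normal scores of the ranks (Benjamini-Hochberg over 9537 regions), 0 regions had an adjusted p under 0.05 in either direction (0%), and 673 (7.06%) had an unadjusted p under 0.05, 332 of them higher in DKO and 341 higher in WT. The smallest adjusted p was 0.222. In simulated data the fit called 0% of 200 planted regions at a normal-score difference of 2, and 52.5% at a difference of 3. The absence of calls therefore does not show that the order of sites was alike in both genotypes.

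The 3 strongest shared sites were chosen for their high rank in all 4 lists, so their ranks are close by that choice. At chr4:135476039-135476950 the fold was 39.1 and 52.2 in DKO and 49.4 and 83.8 in WT, at chr2:146784662-146785715 35.7 and 50.3 in DKO and 59.6 and 78.0 in WT, and at chr7:111594286-111595359 23.3 and 39.0 in DKO and 46.4 and 71.7 in WT. The region of smallest adjusted p, chr15:61271067-61272056, ranked at 99.4 and 99.3 in DKO and at 57.5 and 73.5 in WT (normal-score difference 2.07 ± 0.27, SE; limma, adjusted p = 0.222). Its folds were 20.5 and 26.4 in DKO and 10.9 and 20.5 in WT, and at 0 h 29.4 and 40.4 in DKO and 19.9 and 20.9 in WT. The listed folds of the genotypes thus met at 72 h and were apart at 0 h, but fold sizes are not comparable between lists. The ranks were apart at 72 h and at 0 h, by 33.8 and 35.8 percentile points.

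The 8 regions with the largest rank differences toward DKO ran from 55.0 to 62.4 percentile points (limma, adjusted p from 0.304 to 0.537). The first, chr12:16516118-16516802, was also among the leading DKO-only regions and ranked at 72.5 and 60.6 in DKO, against 3.42 and 4.81 in WT. At chr16:57593585-57594572 the ranks were 73.2 and 67.0 in DKO, against 3.94 and 12.9 in WT, and at chr11:104509503-104510404 they were 91.1 and 74.7 in DKO, against 28.1 and 19.1 in WT. Of the 7 that could be ranked at 0 h, 4 were higher in DKO and 3 higher in WT, by -19.8 to 17.4 points. The one without a 0 h rank, chr7:17266637-17267314, had folds of 10.8 and 15.3 in DKO and 8.14 and 12.4 in WT at 72 h. At 0 h it had 10.4 and 12.4 in DKO, against no peak and 4.32 in WT.

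Differences toward WT reached further, from -74.3 to -63.3 points in the 8 largest (limma, adjusted p from 0.304 to 0.523). At chr8:13213410-13214387 the folds were 5.42 and 5.52 in DKO and 14.8 and 27.1 in WT, with ranks of 19.4 and 4.71 in DKO and 82.2 and 90.4 in WT. At chr8:72663040-72663861 they were 4.82 and 6.92 in DKO and 14.5 and 25.8 in WT. At 0 h the first was 14.7 points lower in DKO and the second 17.4 points higher. At chr18:42138893-42139600 the folds were 4.90 and 5.30 in DKO and 13.9 and 20.5 in WT, and at 0 h no DKO peak was listed, against 4.36 and 4.89 in WT. A difference of like size at both times, -65.6 points at 72 h and -70.0 at 0 h, was found at chr2:117936744-117937394, with folds of 4.90 and 8.55 in DKO and 18.4 and 23.1 in WT at 72 h. At 0 h it had 10.1 and 7.09 in DKO, against 27.3 and 29.0 in WT. Of the 7 that could be ranked at 0 h, 4 were higher in WT and 3 higher in DKO. Of the 9537 regions, rank differences of at least 50 points with groups apart were found at 18 toward DKO and 24 toward WT. Groups were apart at any size at 1796 (18.8%) and 1802 (18.9%). These counts carry no test.

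**Figure D5:**
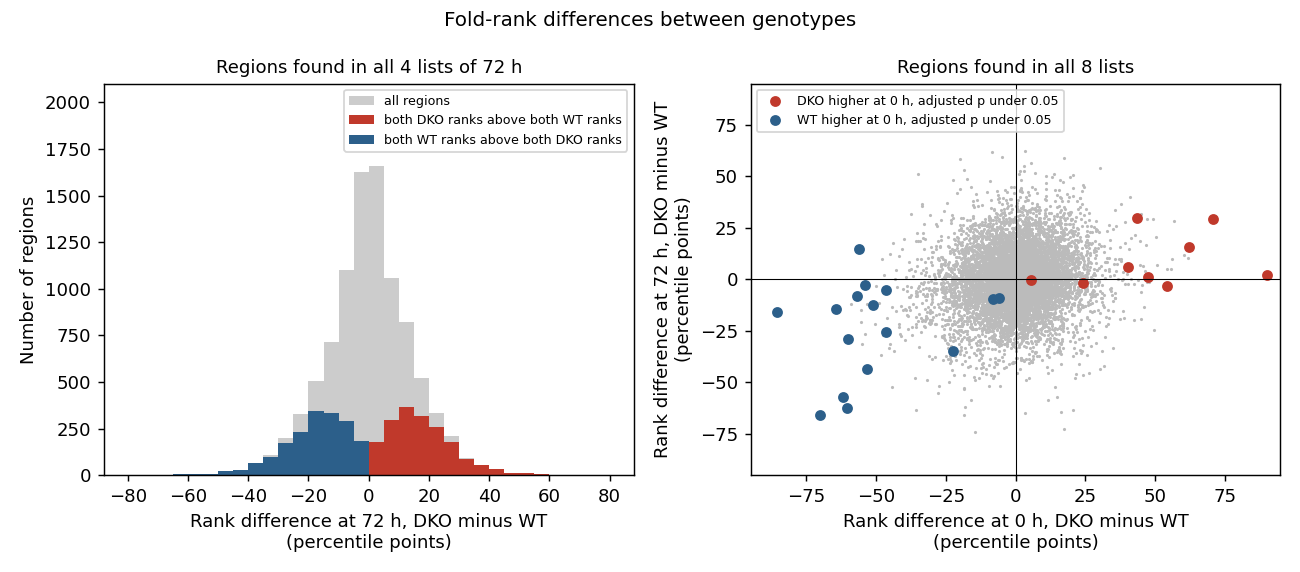
Left, number of regions (vertical axis) by rank difference at 72 h in percentile points, DKO minus WT (horizontal axis), with regions whose groups were apart in red and blue (1796 and 1802 of 9537). Right, rank difference at 72 h (vertical axis) against that at 0 h (horizontal axis) for the 9465 regions found in all 8 lists, with the 25 regions called at 0 h coloured. Of the 16 called as higher in WT, 15 lie below 0 at 72 h, against a median of 0.07 points over all 9465 regions.

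The same fit was made at 0 h over the regions found in all 8 lists, so the 72 h lists set which regions entered it but gave no value to it. Of these 9465 regions, 25 (0.264%) had an adjusted p under 0.05 at 0 h (limma), 9 higher in DKO and 16 higher in WT. At 72 h, 13 of the 25 had their groups apart in the same direction and 1 in the opposite one. Of the 9537 regions in all 4 lists of 72 h, 18.8% were apart toward DKO and 18.9% toward WT. Of the 9465, 37.6% were apart either way. All 16 called as higher in WT but 1 were also higher in WT by mean rank at 72 h, and 10 had their groups apart that way. Their median difference was -15.1 points at 72 h and -54.9 at 0 h. Over all 9465 regions the median difference at 72 h was 0.07 points. Of the 9 called as higher in DKO, 6 kept that direction and 3 had their groups apart, with a median of 1.92 points at 72 h and 47.4 at 0 h. A pair of the regions higher in WT, chr11:117731760-117732493 and chr11:117732771-117734111, lie under the same 0 h peaks and are not independent. The pairs of libraries compared here share no library between the times.

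Individual regions show both outcomes. At chr8:125908692-125909446 the folds were 6.59 and 7.05 in DKO and 16.2 and 29.5 in WT at 72 h. The 0 h folds there were 18.5 and 20.2 in DKO, against 45.1 and 39.7 in WT. The rank difference was -62.2 points at 72 h and -60.4 at 0 h. In contrast, chr8:87498014-87500705 had 43.4 and 41.6 in DKO and 7.97 and 7.75 in WT at 0 h, a difference of 90.01 points. At 72 h its folds were 12.8 and 17.9 in DKO and 20.6 and 25.0 in WT, and the difference was 1.92 points. Over all 9465 regions Pearson's r between the rank differences at 72 h and at 0 h was 0.14, given as a description across regions that come from the same libraries.

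The 4 libraries did not sort fully by genotype in their order of sites. Over the 9537 shared regions Spearman's rho of fold was 0.76 between the DKO replicates and 0.81 between the WT replicates. Between genotypes it was 0.74 and 0.75 for DKO replicate 1 with WT replicates 1 and 2, and 0.78 and 0.80 for DKO replicate 2. DKO replicate 2 thus followed both WT libraries more closely than it followed DKO replicate 1. In the cut lists, too, DKO replicate 2 shared more regions with each WT library than with DKO replicate 1, with 69.8% of regions shared between the DKO replicates, 75.1% between the WT replicates, 66.8% and 65.7% between DKO replicate 1 and WT replicates 1 and 2, and 72.7% and 72.8% between DKO replicate 2 and these. At the 9339 shared regions with 1 peak per list, summits lay a median of 45 bp apart between the DKO replicates and 40 bp between the WT replicates, and from 41 to 46 bp apart between genotypes.

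Specific regions lay between all regions and shared regions in merged width. This width can grow with the number of lists that hold a peak, and the part of that number was not tested. The median distance to the nearest other region was 10.5 kb for DKO-only and 10.2 kb for WT-only regions, against 10.6 kb for regions in all 4 lists and 11.2 kb for all regions. Median merged width was 685 bp for DKO-only and 644.5 bp for WT-only regions, against 799 bp for regions in all 4 lists and 607 bp for all regions. At the 9339 shared single-peak regions the median peak width was 451 and 600 bp in DKO and 610 and 784 bp in WT. The narrower peaks of DKO were thus also seen where all 4 lists held the site. Width followed list length here, from DKO replicate 1 with the shortest list to WT replicate 2 with the longest. DKO replicate 2 and WT replicate 1 lay close, at 600 and 610 bp. Genotype and list length therefore cannot be told apart in these widths.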

How the data were processed

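CTCF CUT&RUN peaks were deposited as 1 narrowPeak list per library, called per library and not on pooled samples. The submitters' processing notes name mm9 as the build and list MACS2 2.1.1, Bowtie2 2.2.5 and FastQC. The sources used here name no calling threshold and no control. Each peak carries a deposited fold, the authors' ratio of signal to background at the peak. It also carries their deposited −log10 p and −log10 q and a deposited summit offset in bp. All are the authors' values and were used within a list to rank, filter or describe its peaks. Median fold per list was also compared between genotypes, and folds of named regions are given side by side as description.

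Groups came from the sample titles. Peaks of chromosomes 1 to 19 that overlapped by at least 1 bp in the 4 lists of 72 h were merged. A region took the strongest peak of each list. Equal-length lists were the top 10339 peaks by −log10 p before the restriction to chromosomes 1 to 19. Ranks of fold over the regions found in all lists were turned into normal scores and tested with limma 3.58.1 (R 4.3.3, empirical Bayes with trend, no block, threshold 0.05), and the same fit was made at 0 h. Merging, presence and the fit were tested on simulated data. Python 3.11.15, pandas 2.3.3 and scipy 1.17.1 did the rest.

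Regions were named by rule: per direction, the 8 specific regions at equal length of highest mean rank, all 12 DKO-only regions of the deposited lists with 12 WT-only ones, the 8 shared regions of largest rank difference with groups apart, and the 3 densest windows of 500 kb, plus the 3 strongest shared regions. The regions of smallest p, those called at 0 h and others inside the windows were chosen after their values were seen. Members, lists and rules were chosen with earlier results of these data known. Genes and sequences are not given, as no annotation or genome of mm9 was used here, and the planned gene lists and motifs were not run. Intervals cover counting error only.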

Additional observations from a re-analysis of the deposited data

How the results depend on the processing

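The counts of specific regions moved with how the lists were cut. Equal length itself tends to bring the counts together, so it does not separate genotype from list length. Against 420 DKO-only and 464 WT-only regions at equal length, the lists as deposited gave 12 and 2516, peaks with a −log10 q of at least 5 gave 6 and 2180, and the top 5000 peaks gave 239 and 294. Matching by summits within 100 bp gave 669 and 743, counted as peaks of replicate 1 of each genotype and not as merged regions. Cutting by fold, restricting to autosomes first, merging the cut lists and overlap of 50% of the shorter peak (also counted as replicate 1 peaks) kept both counts within 1.5 times. With 1 library left out the DKO-only count ran from 820 to 1332 and the WT-only count from 837 to 1306. The rank comparison, with 0 calls in each direction, had 0 in every fit that left out a library, where the lone library is assumed to vary like the others. It gave 1 higher in DKO and 8 higher in WT with ranks of −log10 p in place of fold. With the replicate number as a block it gave 27 higher in DKO and 41 higher in WT, the 16 named regions among them. Whether the numbers pair the libraries is not known: the labels give no shared animal or day. There are only 2 pairs, and the deviations of same-numbered libraries correlated at 0.03. Replicate 2 had the longer list in both genotypes, with 15829 against 10078 autosomal peaks in DKO and 25940 against 16909 in WT. At 0 h the block gave 25 calls, as without it, an alternative chosen after seeing the data.

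With the deposited lists, the share of 72 h regions found at 0 h was 75% in both DKO libraries and 41.7% in both WT libraries for the 12 DKO-only regions, and 76.5% and 89.5% for WT-only regions. With 1 library of 72 h left out, DKO-only regions were found in both DKO libraries at 97.0% to 98.9% and in both WT libraries at 95.9% to 98.0%. WT-only regions were found in both DKO libraries at 85.1% to 93.2% and in both WT libraries at 95.5% to 98.1%. No paired analysis was possible for presence because those counts come from no test. Depth is unknown, so weak sites missing from the short DKO lists cannot be told from unbound ones.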
